A study of Mus musculus with 346 samples.

Results

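The smooth muscle contractile genes of mammary basal cells were followed in single cells at 3 stages of postnatal development. The 10 genes were Acta2, Actg2, Myh11, Mylk, Myl9, Cnn1, Tagln, Tpm2, Cald1 and Oxtr. They were taken by name from the 27179 genes of the count files, where genes carry Entrez identifiers, and all 10 were present. The list was made by name, but with earlier results of these data known. The shares over all genes set beside it below are therefore a background and not an independent test.

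The cells were freshly sorted, labelled as total epithelium, came from the mammary glands of untreated FVB/NJ mice, an inbred laboratory strain, and were caught on Fluidigm C1 chips that turn the RNA of each cell into cDNA in its own chamber. There were 144 cells from pre-pubertal mice of 2 weeks, 136 from pubertal mice of 4.7 to 4.9 weeks and 66 from adult mice of 10 weeks. The series describes 8 mice per stage, while the study's own text gives other numbers of mice per sort, unlike between stages, over several independent experiments. No label ties a cell to a mouse, so each stage counted as 1 sample and no test between stages or cell classes was possible. Intervals below are exact 95% intervals for counting error only (Poisson for reads, Clopper-Pearson for shares of cells), and they do not include the differences between mice or between cells.

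Basal cells of the mammary gland are also called myoepithelial cells, because they are epithelial cells that carry the contractile filaments of smooth muscle. Oxytocin, released when the young suckle, binds its receptor on these cells and raises calcium inside them. Calcium with calmodulin switches on myosin light chain kinase, myosin then pulls on filaments of smooth muscle actin, and milk is pressed out of the alveoli into the ducts.

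After filters on depth and on genes detected, 116 pre-pubertal, 119 pubertal and 44 adult cells were kept, with 109387 to 1189103 reads each and medians of 296592, 574746 and 334631 reads. Because depth differed, a gene was called detected where it had at least 1 read after each cell had been thinned at random to 100000 reads. Levels are CPM (counts per unit of depth, a scale on which 10 CPM is 1 read in 100000) of the reads summed over the cells of a group. A cell was called Krt14-positive where Krt14, the basal keratin, exceeded 40 RPKM (reads per 1000 bases of gene, scaled to the depth of the cell as CPM is), which is 66.4 CPM. By this rule 65 of 279 cells were Krt14-positive. They made up 14.7% of the cells at pre-puberty (17 of 116, interval 8.78 to 22.4), 24.4% at puberty (29 of 119, interval 17.0 to 33.1) and 43.2% in adults (19 of 44, interval 28.3 to 59.0). Only 15 cells lay between 20 and 80 RPKM, and the nearest cells on either side of the line had 49.6 and 36.2 RPKM at pre-puberty, 54.0 and 34.5 for pubertal cells, and 43.1 and 38.4 for adult cells.

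Epithelial markers differed greatly between the stages. Epcam was detected in 12.9% of pre-pubertal, 97.5% of pubertal and 93.2% of adult cells, and the luminal keratin Krt8 in 10.3%, 93.3% and 93.2%. Among 12 Schwann cell markers, a median of 9 was detected in pre-pubertal cells, also among the Krt14-positive ones, against a median of 1 at the later stages. The Krt14 line therefore did not set apart cells free of other markers, since Krt8 was detected in 58.8%, 93.1% and 94.7% of Krt14-positive cells in order of age. How far these markers bear on the contractile genes was not tested. A mean over a stage also mixes the share of cells that express a gene with the level in each, and a higher value for a stage cannot tell these apart.

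Over all cells of a stage, most of the contractile genes stood higher with age. From pre-puberty to puberty, 5 of 10 were higher by a log2 ratio past 1 (after adding 5 CPM to each value), where 16.5% of the 15916 genes with at least 1 CPM in 3 or more cells were, and 1 of 10 was lower past that line, where 14.7% were. From puberty to the adult, 7 of 10 were higher and 0 lower, against 12.7% and 19.9% of all genes. From pre-puberty to the adult, 8 of 10 were higher and 0 lower, against 18.5% and 22.2%. The median log2 ratios of the 10 genes were 1.04, 1.22 and 1.83 in that order, beside medians over all genes of 0.01, -0.05 and -0.04. All 10 genes had passed the filter on low values.

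A few cells held much of the signal. Pre-pubertal cell 30, the most deeply sequenced of all with 1189103 reads and Krt14 at 415 RPKM, gave the most reads of 9 of the 10 genes at its stage, and its summed level of the 10 genes was 34791 CPM. It also had 8 of 12 Schwann and 5 of 10 fibroblast markers, beside medians of 9 and 5 over all pre-pubertal cells. The part of these markers in the result was not tested. With the leading cell of each gene and stage left out, 6, 5 and 7 of the 10 genes were higher in the 3 comparisons.

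**Figure D1:**
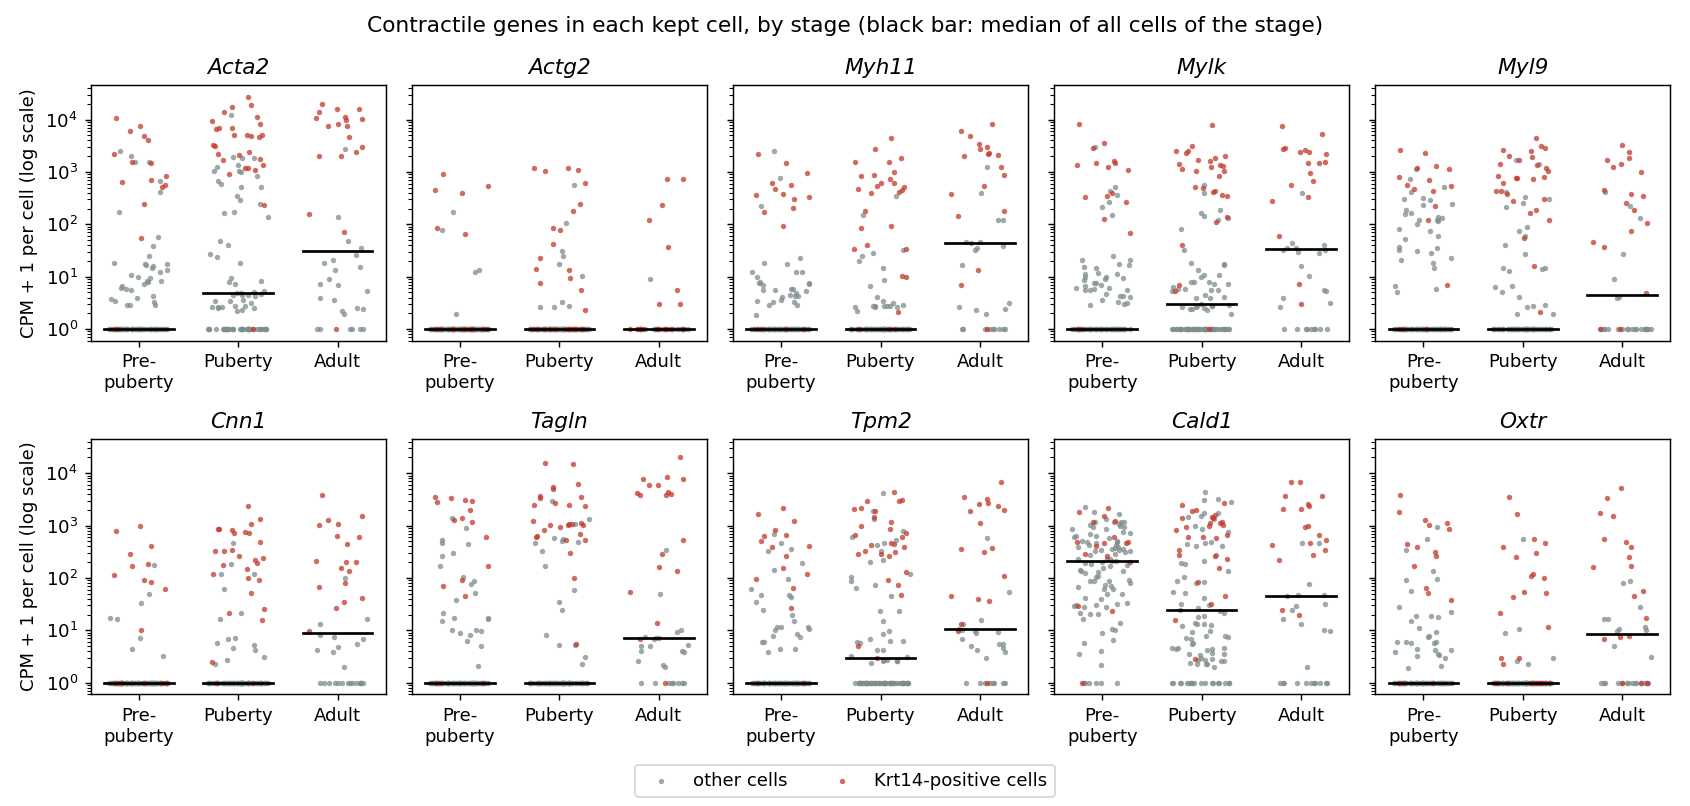
Level of each of the 10 contractile genes in every kept cell (vertical axis, CPM + 1, log scale) by stage, with Krt14-positive cells in red, other cells in grey and the stage median as a black bar. In 9 of the panels the high values belong mainly to red cells, while Cald1 at pre-puberty is high in grey cells as well, with a stage median of 209 CPM.

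The thin filaments of smooth muscle are built from actins. Acta2, smooth muscle alpha-actin (Entrez 11475, chr19:34240336-34255585, RefSeq GRCm38.p6), was the most abundant of the 10 per length at every stage, at 350, 918 and 1932 RPKM. In Krt14-positive cells its level ran from 0 over a median of 828 to 10856 CPM at pre-puberty, from 0 over 4684 to 27499 CPM at puberty, and from 0 over 7699 to 19513 CPM in the adult. The ranges overlapped widely, each from 0, and the medians stood in order of age. Summed over cells, Acta2 was 30.3-fold higher in Krt14-positive than in other cells at pre-puberty (interval 29.3 to 31.4), 15.8-fold at puberty (15.6 to 16.1) and 93.2-fold in the adult (87.5 to 99.3). Single cells set the levels of the other cells: pubertal cell 119 had 12484 CPM of Acta2 with 4 Krt14 reads and held 48.7% of the Acta2 reads of its class. Adult cell 7 held 88.6% of those of the adult other cells, which fell from 88.9 to 10.4 CPM without it.

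Smooth muscle genes are classical targets of serum response factor, which binds a motif called the CArG box, made of CC, 6 bases of A or T, and GG, so that it reads alike on both strands. It was searched in the 250 bases before the transcription start that the RefSeq promoter table (GRCm38.p6) uses, which 7 of the 10 genes had. That start was not the outermost one annotated, since each of these windows reached into the outer bounds of its own gene, by 56 bases in Myl9 and 212 in Acta2. Acta2 and Myl9 are shown because they were the only members with such a motif, in capitals, exact or with 1 of the 6 central bases off. For Myl9 the 194 bases outside the gene bounds are printed, and for Acta2, where the motifs lie inside the bounds, the motifs alone.

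Myl9 upstream, chr2:156775214-156775407, plus strand: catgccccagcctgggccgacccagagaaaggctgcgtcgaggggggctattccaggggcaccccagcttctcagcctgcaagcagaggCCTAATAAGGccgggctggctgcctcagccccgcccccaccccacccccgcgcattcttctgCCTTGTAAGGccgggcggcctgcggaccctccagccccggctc
Acta2 motif, chr19:34255448-34255457, minus strand: CCCTATATGG
Acta2 motif, chr19:34255398-34255407, minus strand: CCTTGTTTGG

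Counted to the start of the promoter table, the Acta2 motifs began 84 and 34 bases before it, both with 1 base off. In Myl9 an exact motif began 161 bases before that start and a motif with 1 base off at 99. The exact motif was in 1.47% of 32851 promoters of this length (482), and the exact or 1-off motif in 8.59% (2823). A match describes letters and not a bound site. Tpm2, Cald1, Oxtr, Cnn1 and Mylk had none of these letters in the window, and Actg2, Myh11 and Tagln had no entry.

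Actg2, smooth muscle gamma-actin (Entrez 11468, chr6:83512909-83536251), was seen in few cells. It was detected in 7.76% of pre-pubertal, 18.5% of pubertal and 15.9% of adult cells, with a median of 0 CPM at every stage. In Krt14-positive cells it was detected in 35.3%, 51.7% and 31.6%, and its summed level was 103, 192 and 118 CPM. The adult other cells held only 2 Actg2 reads, so that the ratio of 653 had a counting interval from 180 to 5397. Reads of actin genes can be split between near-identical coding sequences. The skeletal actin Acta1 had 17.0, 0.102 and 1.02 CPM in order of age, and 0 reads in the pre-pubertal Krt14-positive cells, where Acta2 had 3339 CPM. In pre-pubertal other cells Acta1 had 20.2 CPM, with 67.7% of its reads in cell 120, where Acta2 had 1539 CPM. The cardiac actin Actc1 had 44.6 CPM in these other cells, with 85.1% of its reads in cell 19. That cell also held 42.8% of their Acta2 reads, and Acta2 fell from 110 to 65.0 CPM without it. Whether reads were shared in these cells was not tested.

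Myosin is the motor that pulls on these filaments. Myh11, the smooth muscle myosin heavy chain (Entrez 17880, chr16:14194527-14292188), had the largest ratio between puberty and the adult of the 10 genes. Its summed level was 130 CPM (interval 126 to 133) at pre-puberty, 154.1 CPM (151.2 to 157.1) at puberty and 1119 CPM (1104 to 1134) in the adult, and it was detected in 24.1%, 30.3% and 65.9% of cells. Pre-pubertal cell 30 held 48.5% of the pre-pubertal Myh11 reads, and the level without it was 68.9 CPM. Within Krt14-positive cells the medians were 334, 457 and 2020 CPM, the lowest cell had 0 at each stage, and the highest had 2157, 4543 and 8232 CPM. The adult Krt14-positive cells thus reached above the earlier ones and overlapped them below. Their summed level of 2648 CPM was 4.46-fold the pubertal 594 CPM, and the log2 ratio of 2.15 became 1.91 without the leading cell of each stage.

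Myl9, a regulatory light chain of myosin that the kinase phosphorylates (Entrez 98932, chr2:156775408-156781657), had a summed level in Krt14-positive cells of 932, 1111 and 881 CPM, with medians of 550, 768 and 339 CPM. Pre-pubertal cell 30 held 51.9% of the first of these sums, which was 549 CPM without it. The log2 ratio of puberty to pre-puberty rose from 0.25 to 0.87 when the leading cell of each stage was left out. The highest cells had 2627, 4532 and 3255 CPM and the lowest 0, 1.12 and 0 CPM, so the ranges of the 3 stages lay over each other. Against other cells Myl9 was 17.1-fold higher at pre-puberty, 19.3-fold at puberty and 41.5-fold in the adult.

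Mylk, the myosin light chain kinase (Entrez 107589, chr16:34745199-35002436), was one of the genes whose order of stages depended on single cells. In Krt14-positive cells its summed level was 2213 CPM at pre-puberty, 1044 CPM at puberty and 1895 CPM in the adult. Pre-pubertal cell 30, at 8186 CPM, gave 68.1% of the pre-pubertal reads, and the level without it was 865 CPM. The medians over Krt14-positive cells were 1108, 1048 and 1494 CPM, and the highest cells had 8186, 7964 and 7618 CPM. The log2 ratio of puberty to pre-puberty in these cells was -1.08, and 0.17 without the leading cell of each stage. By its outer bounds Mylk overlaps the genes 1700119H24Rik and E130310I04Rik. The libraries do not keep strand, and whether the counted bases of these genes overlap was not checked.

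The next genes encode proteins that sit on the actin filament. Cnn1, calponin, which restrains the myosin motor (Entrez 12797, chr9:22099221-22109221), was far more often detected in Krt14-positive cells. It was found in 64.7%, 89.7% and 94.7% of them in order of age, and in 6.06%, 12.2% and 28.0% of other cells. Its summed level in Krt14-positive cells was 246, 425 and 705 CPM, with medians of 83.6, 243 and 200 CPM. Pre-pubertal cell 30 held 58.9% of the reads at its stage, and the level without it was 124 CPM. The pooled level and the median therefore gave different orders for puberty and the adult, and adult cell 37, with the highest value of 3799 CPM, held 29.5% of the adult reads.

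Tagln, transgelin, an actin-binding protein used as an early marker of smooth muscle (Entrez 21345, chr9:45929628-45936058), was the second most abundant per length in Krt14-positive cells at every stage, at 877, 1770 and 2959 RPKM. Its level in these cells ran from 0 over a median of 1161 to 3533 CPM at pre-puberty, from 4.50 over 1072 to 15504 CPM at puberty, and from 0 over 3789 to 20375 CPM in the adult. The median of the pubertal cells was no higher than that of the pre-pubertal cells, while the highest cells were. In the adult it was 355-fold higher in Krt14-positive than in other cells (302 to 421), with 4692 against 13.2 CPM. Adult cell 7 held 73.3% of the Tagln reads of the other cells, which fell to 3.63 CPM without it. By its outer bounds Tagln overlaps Pcsk7, and whether their counted bases overlap was not checked.

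Tpm2, beta-tropomyosin, which lies along the actin filament (Entrez 22004, chr4:43513726-43523583), had a summed level in Krt14-positive cells of 671, 1021 and 1711 CPM. Its medians there were 385, 463 and 368 CPM, so the typical cell did not follow the sum. The highest cells had 2204, 4377 and 6673 CPM. Among other cells at puberty, cell 51 had 4233 CPM of Tpm2 with 0.925 RPKM of Krt14, 2 of the 10 genes and 9 of 12 luminal markers detected. Leaving it out lowered the pubertal other cells from 132 to 79.2 CPM. Tpm2 overlaps Car9.

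Cald1, caldesmon, which binds actin and calmodulin (Entrez 109624, chr6:34598495-34775469), went against the label of a basal gene at the first stage. At pre-puberty it was detected in 87.9% of other cells (interval 79.8 to 93.6) and in 94.1% of Krt14-positive cells (71.3 to 99.9), and its level was 340 against 749 CPM, a log2 ratio of 1.13 that was 0.66 without the leading cells. At puberty it was detected in 56.7% of other cells and in the adult in 40.0%. Its level in other cells was 273 CPM at puberty and 38.1 CPM in the adult, against 892 and 2284 CPM in Krt14-positive cells. The ratio between the classes was 2.20-fold (2.13 to 2.28), 3.27-fold (3.20 to 3.35) and 60.0-fold (54.4 to 66.2) in order of age. The gene also has a form outside muscle, and counts per gene do not separate the forms. In these other cells of pre-puberty a median of 9 of 12 Schwann and 5 of 10 fibroblast markers was detected. The Krt14-positive cells of that stage had the same medians, and the part of these markers in the Cald1 level was not tested.

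Oxtr, the oxytocin receptor (Entrez 18430, chr6:112473683-112491035), was lower at puberty than at the other stages. The share of cells with Oxtr was 29.3% at pre-puberty (interval 21.2 to 38.5), 15.1% at puberty (9.22 to 22.9) and 50.0% for adults (34.6 to 65.4), and its level was 205, 81.5 and 402 CPM. The dip was also there within Krt14-positive cells, where Oxtr was detected in 82.4% (56.6 to 96.2), 48.3% (29.4 to 67.5) and 78.9% (54.4 to 93.9), with intervals that overlap. The medians of these cells were 305, 10.5 and 159 CPM, and the highest cells had 3823, 3481 and 5179 CPM. Single cells carried over 50% of the reads in each of these groups, and without them the levels fell from 1081, 307 and 972 CPM to 462, 160 and 470 CPM. Puberty was lowest both times, while pre-puberty and the adult changed places. The log2 ratio of puberty to pre-puberty was -1.80 with these cells and -1.50 without them. Of the pubertal Krt14-positive cells, 6 of 29 had 50% or more of 8 endothelial markers, against 0 of 17 at pre-puberty and 0 of 19 in the adult. The part of such cells in the Oxtr level was not tested. Oxtr was not alone in being lower at puberty than at pre-puberty in Krt14-positive cells. Of 15 basal markers outside the contractile genes, 7 were lower past a log2 ratio of 1 (Krt5, Krt17, Krt15, Trp63, Snai2, Cdh3 and Itgb4). Another 2 were higher, where 17.0% of all genes were lower and 21.6% higher. Of 12 luminal markers, 11 were higher and 0 lower. The part of these markers in the Oxtr level was not tested either.

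Between cell classes, all 10 genes were higher in Krt14-positive than in other cells by a log2 ratio past 1 at pre-puberty, puberty and in the adult, where 12.4%, 12.6% and 17.9% of all genes were. The median log2 ratios over the 10 genes were 4.54, 4.38 and 6.00, with ranges of 1.13 to 5.74, 1.69 to 5.66 and 4.57 to 8.01. Without the leading cell of each gene and class, 9, 10 and 10 genes passed. Depth was alike in the classes, with medians of 310255 against 295836 reads, 539891 against 578774 and 347964 against 329033. The low end of every range but the adult one was Cald1.

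**Figure D2:**
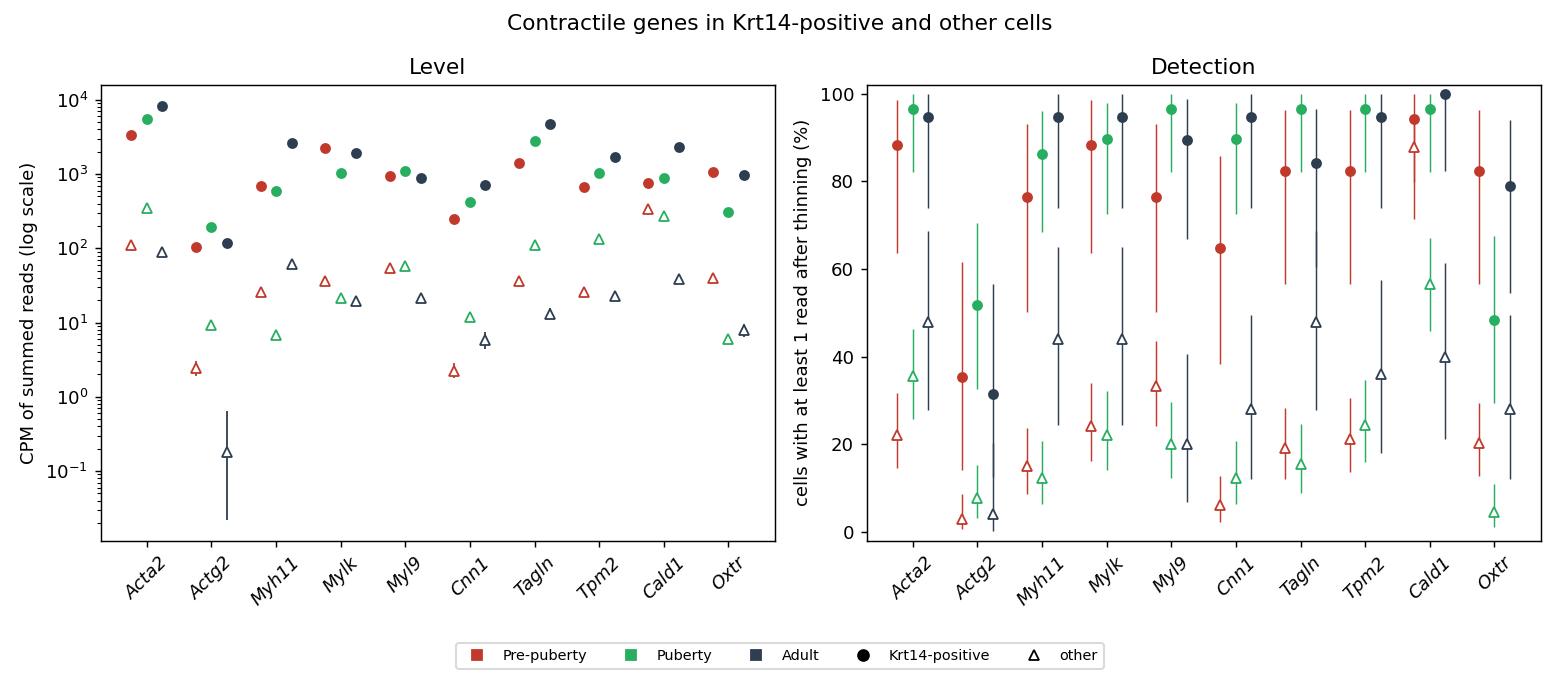
Level (left, CPM of summed reads, log scale, with exact Poisson intervals) and detection (right, percent of cells thinned to 100000 reads, with Clopper-Pearson intervals) of each gene in Krt14-positive cells (filled circles) and other cells (open triangles), by stage. Filled circles lie above the open triangles of the same stage for all 10 genes, closest for Cald1 at pre-puberty (749 against 340 CPM), and for Oxtr the filled circle of puberty is the lowest of the 3 stages in both panels.

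In the adult, the typical level of Acta2, Myh11 and Mylk in other cells was low. Acta2 was detected in 48.0% of other cells with a median over all of them of 4.31 CPM, Myh11 in 44.0% with 1.61 CPM and Mylk in 44.0% with 4.31 CPM. These medians are below the 10 CPM that 1 read is worth in a thinned cell, so no level was read from them. Leaving thinning out raised the share for Acta2 in these cells to 76.0% and in Krt14-positive cells left it at 94.7%.

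Within Krt14-positive cells the median difference between stages was smaller than over all cells, though not for every gene. From pre-puberty to puberty, 1 of 10 genes was higher past a log2 ratio of 1 (Tagln, 1.01) and 2 were lower (Mylk and Oxtr), where 21.6% and 17.0% of all genes were. From puberty to the adult, 3 of 10 were higher (Myh11, 2.15, Oxtr, 1.64, and Cald1, 1.35) against 14.0%. From pre-puberty to the adult, 6 of 10 were higher against 17.6%, namely Myh11, Tagln, Cald1, Cnn1, Tpm2 and Acta2. Medians over the 10 genes were 0.43, 0.74 and 1.33. The first comparison rested on pre-pubertal cell 30. Without the leading cells, 5 genes were higher and 1 was lower.

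Per length, the order of the genes in Krt14-positive cells was led by Acta2 and Tagln at every stage. In the adult Tpm2 and Myl9 followed at 815 and 814 RPKM, levels that do not differ beyond counting error. Cald1 came next at 566, Myh11 at 399, Cnn1 at 355, Mylk at 243, Oxtr at 213 and Actg2 at 89.8 RPKM. At puberty the last place was held by Oxtr at 67.3 RPKM, below Myh11 at 89.6 RPKM, and at pre-puberty by Actg2 at 78.0 RPKM. Myh11 held the ninth place at pre-puberty and puberty and the sixth in the adult.

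The number of contractile genes detected in the same cell was also counted. Krt14-positive cells had a median of 9 of the 10 genes at each stage, and other cells a median of 2, 2 and 3. At least 5 genes were detected in 14 of 17, 28 of 29 and 18 of 19 Krt14-positive cells, and in 7 of 99, 12 of 90 and 8 of 25 other cells. The median summed level of the 10 genes in these 7, 12 and 8 other cells was 1394, 2312 and 190 CPM. In the adult ones the genes were thus often detected at a low level, and the lowest of these cells had 95.6 CPM. All 46 cells with 9 or more genes were Krt14-positive, and 0 of 214 other cells reached 9, which allows a share of up to 1.402% (a limit of 3 counts in 214, not Clopper-Pearson). Over all cells of a stage, the share with at least 5 genes was 18.1% (interval 11.6 to 26.3) at pre-puberty, 33.6% (25.2 to 42.8) at puberty and 59.1% (43.2 to 73.7) in the adult. Another random thinning gave 23.3%, 37.8% and 65.9%, and unthinned counts gave 34.5%, 46.2% and 77.3%. The order of the stages was the same in each. With genes called above 40 RPKM instead, the shares at puberty and in the adult lay below the intervals given here, as listed in the closing section.

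**Figure D3:**
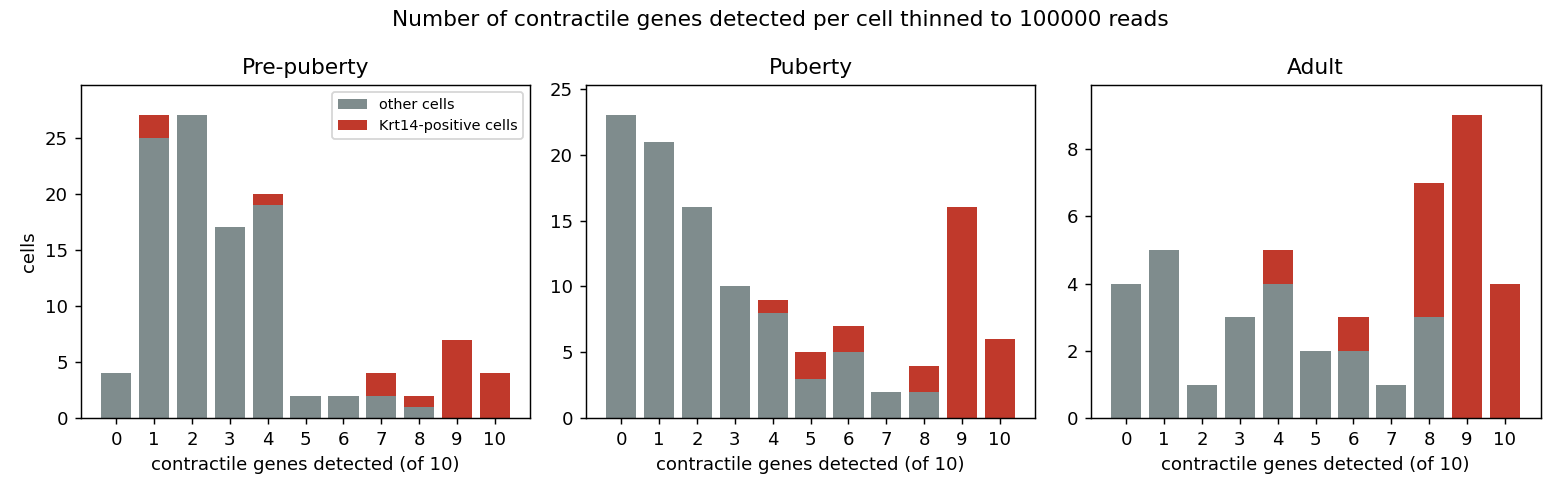
Number of the 10 contractile genes detected per cell thinned to 100000 reads (horizontal axis) against the number of cells (vertical axis), with Krt14-positive cells in red stacked on other cells in grey. Each stage shows a red group at 9 genes, where 7, 16 and 9 cells sit, and a grey group below 5 genes.

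The summed level of the 10 genes also differed between the classes, with overlap. In Krt14-positive cells it ran from 28.0 over a median of 5872 to 34791 CPM at pre-puberty, from 1652 over 9601 to 47365 CPM at puberty, and from 120 over 18565 to 53920 CPM in the adult. In other cells the medians were 377, 50.5 and 83.7 CPM, and the highest cells had 11889, 20214 and 5395 CPM. Of the other cells, 1 of 99, 1 of 90 and 0 of 25 exceeded the median of the Krt14-positive cells of their stage. At pre-puberty the median Cald1 level of other cells was itself 174 CPM.

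**Figure D4:**
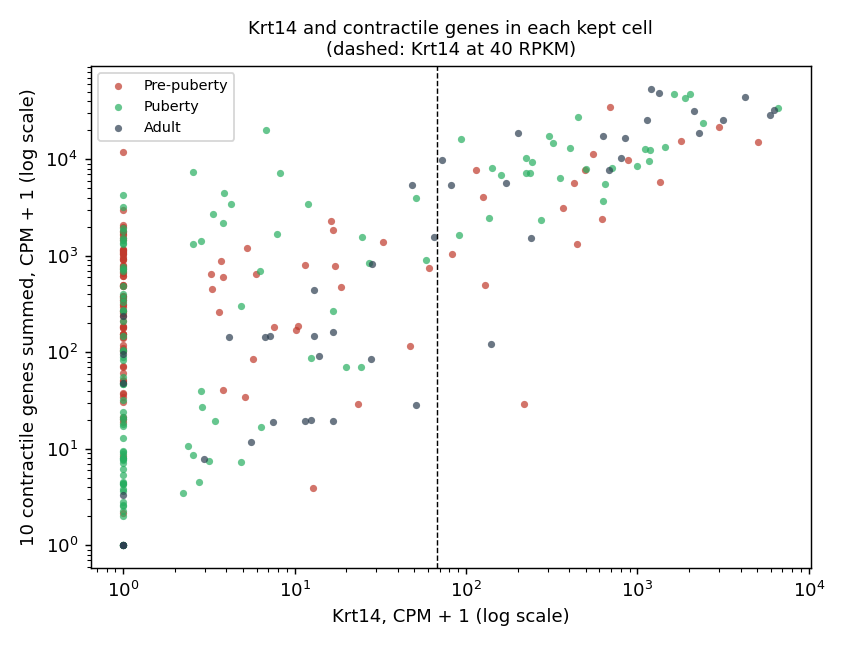
Krt14 (horizontal axis, CPM + 1, log scale) against the summed level of the 10 contractile genes (vertical axis, CPM + 1, log scale) in each kept cell, coloured by stage, with the Krt14 line of 66.4 CPM dashed. Cells right of the line lie mostly above 1000 CPM, and a scatter of cells left of it reaches up to 20214 CPM.

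Some cells went against the pattern. Among the 65 Krt14-positive cells, 5 had fewer than 5 contractile genes, namely pre-pubertal cells 12 and 27 with 1 gene each and pre-pubertal cell 50, pubertal cell 45 and adult cell 49 with 4 each. They had 158095 to 879809 reads, and the part of depth was not tested. Conversely, of the 87 cells with 5 or more of the genes, 27 lay below the Krt14 line, and 8 of these had no Krt14 read. In 3 of the 27, at least 4 of 10 pericyte and vascular smooth muscle markers were detected, and these were pre-pubertal cells 56 and 97 and adult cell 5. Pre-pubertal cell 56 had Myh11 at 2493, Mylk at 2993 and Acta2 at 2002 CPM, no Oxtr above 17.4 CPM, no read of Krt14 or Krt5, and 578 CPM of Rgs5, a pericyte gene. Rgs5 had 0 reads in all pubertal and adult cells and in all pre-pubertal Krt14-positive cells. The 12 pubertal cells among the 27 had a median of 9 of 12 luminal and 7.5 of 15 basal markers outside the contractile genes. These medians were 9 and 8 over all pubertal Krt14-positive cells, and 10 and 3 over all pubertal other cells. The 8 adult ones among the 27 had medians of 8.5 and 4.5 of these markers, and a median summed level of the contractile genes of 190 CPM. Over all adult cells the marker medians were 5 and 9 in Krt14-positive cells, and 8 and 4 in other cells. The 7 pre-pubertal ones had a median of 8 of 12 Schwann markers, beside 9 over all pre-pubertal cells.

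The share of cells with each gene was also read by the number of genes detected, over all 279 cells, with each gene counting toward its own total. Stages were pooled here, so these shares give no order in time. In the 97 cells with 1 or 2 genes, Cald1 was present in 76.3% and each of the other genes in 4.12 to 11.3%. These were mostly earlier cells (54 pre-pubertal and 37 pubertal), and in the 6 adult ones Cald1 was present in 0 and Acta2 and Cnn1 in 3 each. In the 28 cells with 5 to 7 genes, Acta2 and Cald1 were each present in 92.9%, while Cnn1 and Oxtr were in 35.7% and Actg2 in 7.14%. In the 59 cells with 8 to 10 genes, Acta2 and Tpm2 were present in all, Oxtr in 76.3% and Actg2 in 47.5%. By stage, Oxtr was in 13 of 13 of these cells at pre-puberty, 15 of 26 at puberty and 17 of 20 in the adult, and Actg2 in 6, 16 and 6.

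**Figure D5:**
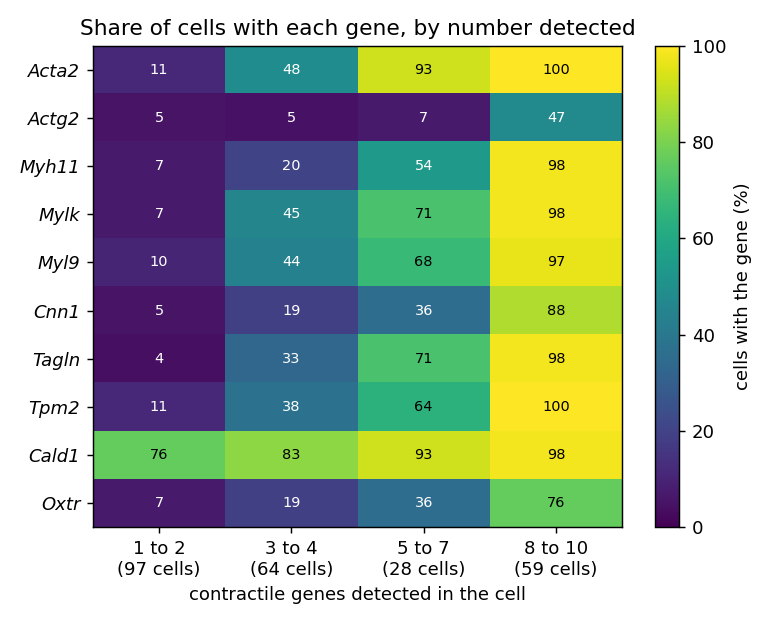
Share of cells (percent, colour and printed value) in which each contractile gene was detected, for cells grouped by how many of the 10 genes they held. Cells of all stages are pooled, so the columns give no order in time. Cald1 is common from the first column (76.3%, with 0 of 6 adult cells). Each gene has its largest share in the last column, where Actg2 stays below 50%.

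Across the 279 cells, Pearson's r of each gene with the mean of the other 9 (log2 of CPM + 10 on thinned counts) was highest for Tagln at 0.88 and Acta2 at 0.87, followed by Myh11 and Mylk at 0.84, Cnn1 at 0.83, Tpm2 at 0.79 and Myl9 at 0.78. It was lower for Oxtr at 0.65, Cald1 at 0.56 and Actg2 at 0.48. For Cald1 it was 0.32 in pre-pubertal, 0.63 in pubertal and 0.90 in adult cells. Within the 65 Krt14-positive cells alone the values were 0.77 for Tagln, 0.75 for Acta2, 0.41 for Oxtr and 0.29 for Actg2. These are descriptions over cells that share mice, chips and depth.

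Among 7673 other genes detected in at least 10% of cells, those most like the mean of the 10 were Krt14 (r = 0.89), 1600014C10Rik (0.74), Cxcl14, a chemokine (0.72), Ecrg4 (0.70), Thbs1, the matrix protein thrombospondin (0.67), Rbpms, an RNA-binding protein (0.66), Krt5, the partner keratin of Krt14 (0.66), Col17a1, a hemidesmosome collagen (0.63), Flna, the actin crosslinker filamin A (0.62), and Pdpn, podoplanin (0.59). Krt14 and Krt5 are basal keratins, and the first of them also defines the cell class. Krt14 was at 866, 887 and 2012 CPM in Krt14-positive cells, while Krt5 had 368, 143 and 507 CPM there, lowest at puberty as Oxtr was.

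The wider machinery differed less between the classes. A further 55 genes of the contraction pathway were general actins, myosins and calmodulins, regulators of myosin phosphorylation, oxytocin receptor signalling, serum response factor and its coactivators, and anchoring proteins. Of these, 17, 17 and 24 were higher in Krt14-positive cells in order of age, and 8, 5 and 5 were lower. Of all genes, 12.4%, 12.6% and 17.9% were higher and 20.6%, 17.2% and 21.8% lower. The median log2 ratios of the 55 genes were 0.29, 0.34 and 0.49. Between stages, 10 were higher and 7 lower from pre-puberty to puberty, 6 and 9 from puberty to the adult, and 14 and 12 from pre-puberty to the adult, beside 16.5% and 14.7%, 12.7% and 19.9%, and 18.5% and 22.2% of all genes.

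Of the anchoring and cytoskeletal proteins, 7, 9 and 13 of 17 were higher in Krt14-positive cells and 2, 1 and 0 lower, where 12.4%, 12.6% and 17.9% of all genes were higher and 20.6%, 17.2% and 21.8% lower. Flna, Actn1 (alpha-actinin), Palld, Pdlim3 and Synpo2 were higher at every stage. The most abundant 3 of that list were Vcl (vinculin), at 807, 766 and 566 CPM in Krt14-positive and 943, 468 and 587 CPM in other cells, Lpp, at 683, 767 and 1186 against 344, 550 and 280 CPM, and Cnn3, at 598, 487 and 574 against 766, 379 and 490 CPM. Of these, only Lpp in the adult passed a log2 ratio of 1, at 2.06.

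Among the 16 general filament, myosin and calmodulin genes, 6, 6 and 4 were higher in Krt14-positive cells and 0, 0 and 2 lower, against the same shares of all genes. Actb, the cytoplasmic actin, was alike in the classes at 22299 against 17270, 21079 against 17199 and 8314 against 7203 CPM, and it was lower in the adult than at puberty, with a log2 ratio of -1.25 over all cells. Myh9, a nonmuscle myosin, was also lower in the adult, at 858 against 1937 CPM, where Myh11 was higher. Calm2, a calmodulin gene, was 659, 1277 and 2111 CPM in order of age.

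Downstream of the oxytocin receptor, 3, 0 and 3 of 8 genes were higher in Krt14-positive cells and 1, 2 and 2 lower, where all genes gave 12.4%, 12.6% and 17.9% higher and 20.6%, 17.2% and 21.8% lower. Gnaq, the G protein subunit that couples the receptor to calcium release, had 162, 264 and 71.5 CPM in Krt14-positive cells, and Gna11, its close relative, 104, 60.0 and 37.3 CPM. Rgs2, which dampens this signal, had 37.3, 224 and 33.1 CPM there. Over all cells Rgs2 was higher past a log2 ratio of 1 at puberty than at pre-puberty, and again in the adult than at puberty. A link between Rgs2 and Oxtr was not tested. In adult other cells Rgs2 had 657 CPM.

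Of 6 genes for serum response factor and its coactivators, 5 passed the filter on low values. In Krt14-positive against other cells, 0, 0 and 2 of the 6 were higher in order of age and 3 (Myocd, Mkl1 and Gata6), 1 (Gata6) and 0 lower. Of all genes, 12.4%, 12.6% and 17.9% were higher and 20.6%, 17.2% and 21.8% lower. Srf had 35.4, 30.1 and 59.8 CPM in Krt14-positive cells and 52.6, 44.0 and 26.0 CPM in other cells. Mkl2, a coactivator, had 161, 260 and 443 CPM against 102, 237 and 21.2 CPM, so that in the adult both passed a log2 ratio of 1 between the classes, at 1.07 and 4.10. Gata6 had 2.32 CPM in pre-pubertal Krt14-positive cells and 0 at the later stages.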

How the data were processed

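Per the labels and the study's methods, read pairs were mapped to mm10 with Subread (1.4.6 in the submitters' processing notes) and assigned to Entrez genes with featureCounts. The authors deposited whole counts per gene and cell, with a gene length, and no normalization. Libraries carried no strand and no molecular identifiers, and the handling of reads shared between similar genes is not given in the sources used here. Of 27179 genes, 25275 matched RefSeq (GRCm38.p6). Mitochondrial (15) and ribosomal protein (119) genes were removed, leaving 25141, and cells with at least 100000 reads and 1500 genes were kept. Mitochondrial reads were 4.22%, 11.3% and 12.3% of all counts in order of age. Counts were summed per group as CPM, compared as log2 ratios after adding 5 CPM, and called past 1. Scaling by TMM used edgeR 4.0.16. No 2 cells held identical counts. The code was tested on simulated data. Members and gene lists were chosen with earlier results of these data known. Named were all 10 members, the 3 most abundant genes of each pathway list with any called between puberty and the adult where these were 5 or fewer, and the 10 genes most like the members. The single genes of 1 pathway list are not reported here. Lineage checks were Krt14, Krt5, Krt8, Krt18 and Epcam, and other genes and cells were named after their values were seen.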

Additional observations from a re-analysis of the deposited data

Results flagged for a closer look

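Cells below the depth and gene filters were not used in any comparison, yet they held reads of the contractile genes above the level that 3 reads would give. In the 28 pre-pubertal cells left out, the 10 genes summed to 3898 CPM (interval 3732 to 4069), and to 1908 CPM without the leading cell, beside 2376 CPM in the kept cells. In the 17 pubertal cells they summed to 4757 CPM (4602 to 4916), and to 2660 CPM without the leading cell, beside 4209 CPM. In the 22 adult cells they summed to 3458 CPM (3286 to 3637), and to 2845 CPM without it, beside 10052 CPM in the kept cells. Krt14 in these cells was 82.6, 30.7 and 371 CPM in the same order.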

How the results depend on the processing

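No paired analysis was possible because no label ties a cell to a mouse and the numbers in the titles only name cells, and no result rests on a test. Of 132 recomputed counts and shares, 115 stayed within 1.5 times the reported count or within its interval and 17 moved. Among Krt14-positive cells, the count of genes higher at puberty than at pre-puberty (1 as reported) was 3 with equal weight per cell, 0 with TMM, 5 without the leading cells, 6 in cells of 200000 to 600000 reads, 3 with Krt14 called by 1 thinned read and 2 without cells that have Krt8 or Krt18, which left 10, 5 and 5 Krt14-positive cells. In alternatives chosen after seeing the data, it was 2 without pre-pubertal cells 1 to 37, 5 without cell 30 and 2 without cells with 4 or more pericyte markers. For Mylk the log2 ratio of this comparison turned positive, to 0.17 without the leading cells, 0.26 at 200000 to 600000 reads and 0.27 without cell 30. The count higher in the adult than at puberty in these cells (3) was 5 at 200000 to 600000 reads, 5 with Krt5 in place of Krt14 and 6 without Krt8 or Krt18 cells. Shares of cells with at least 5 genes were 34.5%, 46.2% and 77.3% unthinned, and 24.4% at puberty and 36.4% in the adult with genes called above 40 RPKM. Apart from the leading cells, the cause of these moves was not tested. Of 1023 values of single genes and background shares, 96 moved and 3 turned. The count between classes lay between 8 and 10 of 10 in every setting. Depth limits genes near 1 read per 100000, and the 44 adult cells limit every adult share.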
